A study of Mus musculus with 48 samples.

Results

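Interferon-stimulated genes were followed in the livers of mice with an aP2-Cre driven deletion of Bmal1 and of their littermate controls. The genes were a list of 38 symbols chosen for their known induction by interferon. Of these, 37 had a row in the deposited count table and reached the minimum mean of 0.3 CPM (reads of a gene scaled to a common library size) over all 48 libraries. The symbol without a row was Psmb9. All 37 also passed the filter on low counts, among 13646 genes tested of 22354 in the table, and none of them was at 0 in any library. Their mean levels ran from 1.84 to 345 CPM, a scale that is not corrected for gene length.

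The mice were C57BL/6. The KO mice carried the floxed Bmal1 alleles (fx/fx) and aP2-Cre, and the controls, labelled wild type and called WT here, were littermates. The sources used here do not say whether the controls carried floxed alleles or Cre alone. The design text gives an age of 4 to 6 months and male sex. All mice had spent 36 h in constant darkness before they were killed in the dark, and the 6 collection times were 0, 4, 8, 12, 16 and 20 h. By the labels there were 5 WT and 3 KO libraries at 16 h and 4 in every other group, whereas the design text has 4 throughout. The aP2 promoter, that of the fatty acid binding protein gene Fabp4, is used to drive Cre in adipocytes and is also known to be active in macrophages. Liver is therefore not the tissue for which this driver is mainly used.

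Totals without albumin lay between 12841969 and 13009797 counts. In all 48 libraries the female transcript Xist had 3029 to 13969 counts and no Y-linked gene examined had more than 1, which goes against the male sex in the design text. Arntl, the symbol under which Bmal1 is listed, had group means of 2.02 to 37.0 CPM in WT and 3.68 to 32.4 CPM in KO. Its KO minus WT log2 change was 0.30 ± 0.16 (SE), with an adjusted p of 0.347 in edgeR's quasi-likelihood test. At 4 h it was at 6.08 to 12.6 CPM in KO and 12.4 to 34.2 in WT, and at 16 h it was at 19.2 to 36.1 CPM in KO and 13.8 to 21.3 in WT. No loss of its RNA at all times was therefore seen in whole liver. The labels give adipocyte as cell type beside liver as tissue, and the hepatocyte markers summed to at least 21574 CPM in every library. Of 6 adipocyte markers, 2 had enough counts to be tested and neither passed. In single genes 3 libraries stood apart. WT 0 h replicate 3 had 111674 counts of the acute phase gene Saa1 (median 593) and 336 of the adrenal gene Star (median 25), KO 0 h replicate 2 had 907 of the pancreatic gene Cela2a (median 4), and KO 16 h replicate 2 had 5936 of Lepr (median 197.5). Saa1 was also high in KO 4 h replicate 2 (54369 counts) and KO 20 h replicate 1 (29715). Without KO 4 h replicate 2, 5 of the interferon-stimulated genes passed the genotype test across times instead of 6 (170 of all genes instead of 191). In that setting 0 of them passed at 4 h, where 17 had a p below 0.05 by edgeR.

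Interferons are secreted proteins that cells release on sensing viral or bacterial nucleic acid. Type I and type III interferons act through JAK kinases, and a complex that holds STAT2 and IRF9 then binds the interferon-stimulated response element (ISRE) in promoters. Interferon gamma acts on the gamma-activated site (GAS). The products of the induced genes block viral replication, degrade or modify RNA and proteins, attack vacuoles that hold intracellular bacteria and parasites, and raise antigen presentation. In liver, hepatocytes, Kupffer cells, endothelium and lymphocytes all respond, and a bulk sample cannot tell fewer responding cells from less RNA per cell.

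Promoters are shown for those genes past the genotype test across times that had an entry in the RefSeq promoter table, to let the ISRE letters be read beside the changes. These were Ifit1, Cmpk2, Isg15 and Gbp3, while Usp18 and Gbp10 are named only. Each line holds the 250 bases before the start site on the gene's strand, from RefSeq on GRCm38.p6, with ISRE matches in capitals, an ISRE match being GAAA, any 2 bases and GAAA again on either strand. The windows are chr19:34640639-34640888 (plus strand) for Ifit1, chr12:26468965-26469214 (plus) for Cmpk2, chr4:156200819-156201068 (minus) for Isg15 and chr3:142559794-142560043 (plus) for Gbp3.
Ifit1: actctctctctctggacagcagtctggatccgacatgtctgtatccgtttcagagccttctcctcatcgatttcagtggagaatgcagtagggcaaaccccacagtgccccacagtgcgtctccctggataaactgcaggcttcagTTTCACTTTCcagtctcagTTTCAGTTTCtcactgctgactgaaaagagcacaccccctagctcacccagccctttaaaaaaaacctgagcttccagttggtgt
Isg15: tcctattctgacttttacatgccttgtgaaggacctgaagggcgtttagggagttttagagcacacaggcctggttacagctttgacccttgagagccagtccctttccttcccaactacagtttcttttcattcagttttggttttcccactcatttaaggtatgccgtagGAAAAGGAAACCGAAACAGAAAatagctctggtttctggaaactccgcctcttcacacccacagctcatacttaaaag
Gbp3: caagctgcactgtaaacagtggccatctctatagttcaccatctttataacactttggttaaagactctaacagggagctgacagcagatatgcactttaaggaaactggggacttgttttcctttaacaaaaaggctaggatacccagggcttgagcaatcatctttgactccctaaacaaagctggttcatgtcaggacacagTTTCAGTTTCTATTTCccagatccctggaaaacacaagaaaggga
Cmpk2: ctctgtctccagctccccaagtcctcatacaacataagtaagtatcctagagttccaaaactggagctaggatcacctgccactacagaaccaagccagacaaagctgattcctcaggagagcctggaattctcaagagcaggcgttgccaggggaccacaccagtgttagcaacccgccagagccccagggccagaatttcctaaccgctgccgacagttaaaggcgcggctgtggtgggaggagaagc

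Ifit1 held 2 separate matches, from −104 to −95 and from −85 to −76 of the start site. Isg15 held 3 overlapping matches between −78 and −57, and Gbp3 2 overlapping matches between −45 and −30. The Cmpk2 window held none. A window of 300 bases (250 before to 50 after the start) was available for 27 of the 37 genes, and 15 of the 27 (55.6%) had the ISRE letters in at least 1 window, against 3.99% of 27025 RefSeq genes counted the same way. The GAS letters TTCNNNGAA were in 8 of 27 (29.6%), against 9.55% of genes. The clock's E-box, CACGTG, was in 0 of 27, against 8.09% of genes. These are matches of letters in a short window, both strands searched, and not measured binding. The median KO minus WT log2 change was 0.34 over the 15 genes with the ISRE letters and 0.17 over the 12 without. The ranges overlapped, from −0.02 to 0.79 with the letters and from 0.02 to 0.65 without. Usp18 and Gbp10, both past the test, had no window and are in neither median. For the GAS letters the median was 0.16 over the 8 genes with them (0.04 to 0.58) and 0.34 over the 19 without (−0.02 to 0.79).

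Averaged over the 6 times, 6 of the 37 genes rose in KO and none fell. Over all genes tested 0.623% rose and 1.40% changed in either direction (edgeR's quasi-likelihood test, Benjamini-Hochberg adjusted p under 0.05). Gbp10, Ifit1, Gbp3, Cmpk2, Isg15 and Usp18 were the 6, with log2 changes from 1.16 ± 0.25 (SE) for Gbp10 down to 0.50 ± 0.11 for Usp18. Of the 37 changes 35 were positive, where 48.9% of all genes tested were, and their median was 0.30, where that of all genes was −0.005. A p below 0.05 before adjustment was reached by 22 of 37, and by 17.1% of all genes. The 2 negative values were those of Stat2 (−0.02) and Ddx58 (−0.02). The count depended on the 4 h groups and on single libraries. With both 4 h groups left out, an alternative added after the data were seen, 0 of 37 passed by edgeR (13 had a p below 0.05), and the median change was 0.23. The genes called in the whole table fell as well in that setting, from 191 to 50. The count was 3 without KO 16 h replicate 3 or KO 20 h replicate 2, where 99 and 131 genes were called in all. It was 10 without WT 16 h replicate 2 (381 in all) and 12 without WT 8 h replicate 2 or KO 16 h replicate 2 (270 and 363 in all).

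**Figure D1:**
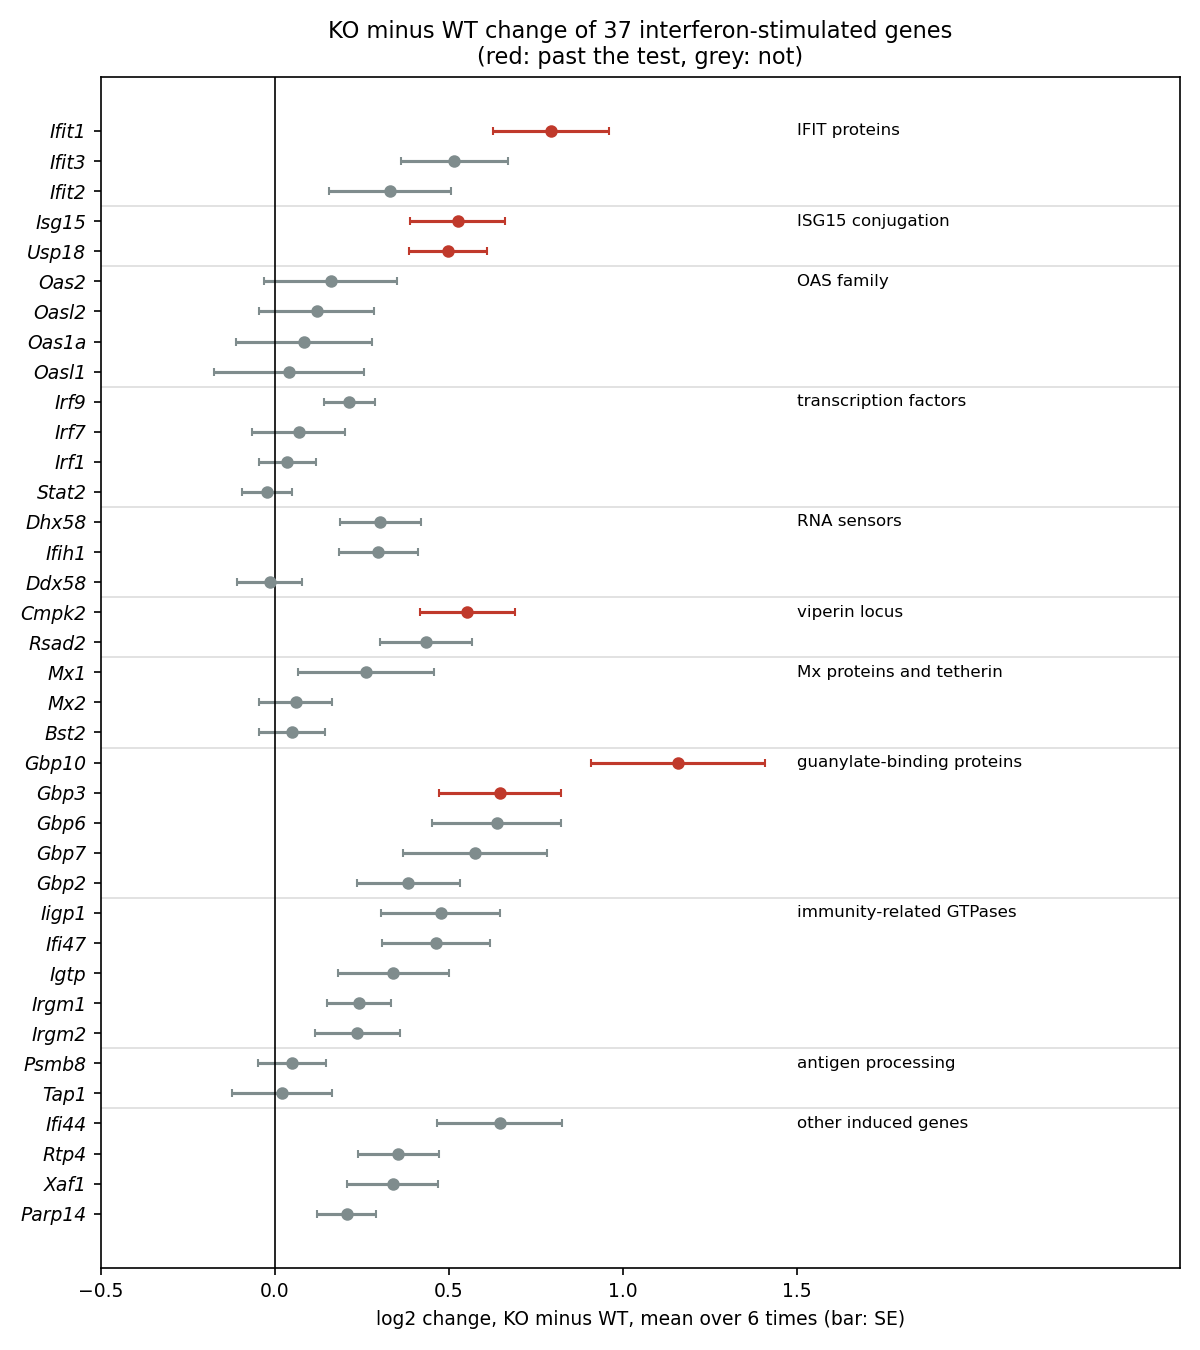
KO minus WT log2 change of each of the 37 genes, averaged over the 6 times and grouped by role, with bars of 1 SE. Red points mark the 6 genes past edgeR's test, all of them right of 0, and all but 2 of the 37 points lie right of 0.

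The IFIT proteins bind viral RNA that lacks the host's cap methylation and block its translation. Ifit1 (ENSMUSG00000034459, mm9 chr19:34715361-34724499) had a lowest, median and highest level of 4.82, 8.34 and 21.9 CPM in the 25 WT libraries. In the 23 KO libraries these were 3.83, 14.0 and 42.7 CPM. The ranges overlapped, and both the lowest and the highest library were KO. At 4 h, WT had 6.98, 5.50, 12.4 and 17.9 CPM and KO had 26.2, 33.1, 40.6 and 42.7, without overlap. Ifit1 rose by 0.79 ± 0.17 on the log2 scale (1.73-fold, edgeR adjusted p = 0.00805), and its KO mean was above the WT mean at 5 of 6 times. Ifit3 (0.52 ± 0.15, adjusted p = 0.0805) and Ifit2 (0.33 ± 0.18, adjusted p = 0.330) did not pass. Ifit3 ran from 4.50 to 20.7 CPM in WT, with a median of 11.1, and from 5.74 to 46.9 in KO, with a median of 15.2.

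The listed genes of the ISG15 system, Isg15 and Usp18, both rose. ISG15 is a ubiquitin-like protein that is attached to other proteins, and USP18 removes it and also dampens signalling at the type I receptor. Isg15 (ENSMUSG00000035692, mm9 chr4:155573533-155574927) had a lowest, median and highest level of 3.30, 5.70 and 14.5 CPM in WT and of 1.48, 8.52 and 21.3 CPM in KO. At 4 h the WT libraries had 7.52, 5.04, 8.15 and 11.0 CPM and the KO libraries 18.9, 16.5, 16.4 and 21.3, so the groups did not overlap. The change across times was 0.52 ± 0.14 (1.44-fold, edgeR adjusted p = 0.0379), and KO was higher at all 6 times. Usp18 (ENSMUSG00000030107, mm9 chr6:121195924-121220934) spanned 5.91 to 20.2 CPM in WT (median 9.09) and 5.37 to 26.4 in KO (median 14.3). It rose by 0.50 ± 0.11 (1.41-fold, edgeR adjusted p = 0.0133). At 16 h its 3 KO libraries (15.6 the highest, 9.73 the lowest) were all above the 5 WT libraries (8.79 the highest). Isg15 did not pass in 22 of 57 alternatives and Usp18 in 2.

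Cmpk2, a mitochondrial nucleotide kinase gene, and Rsad2, which encodes the antiviral protein viperin, lie near each other on chromosome 12. Cmpk2 (ENSMUSG00000020638, mm9 chr12:27154069-27164700) had a lowest, median and highest level of 1.69, 3.53 and 8.06 CPM in WT and of 2.43, 5.57 and 9.89 CPM in KO. Its change was 0.55 ± 0.14 (1.47-fold, edgeR adjusted p = 0.0266), positive at all 6 times, and it did not pass without KO 16 h replicate 3 or KO 20 h replicate 2. Its largest difference was at 12 h (0.98), where WT had 2.29, 1.87, 2.58 and 2.08 CPM and KO had 4.37, 3.50, 5.32 and 4.28. Rsad2 spanned 4.02 to 19.5 CPM in WT (median 7.40) and 5.13 to 18.1 in KO (median 11.2), and its change of 0.43 ± 0.13 did not pass (adjusted p = 0.0849). At 12 h the KO libraries of Rsad2 were likewise all above the WT libraries (8.44 to 11.2 against 5.40 to 6.99 CPM).

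The guanylate-binding proteins are interferon gamma-induced GTPases that coat and disrupt pathogen vacuoles. As a group they had the highest median change (0.64), and each of the 5 had a p below 0.05 before adjustment. Gbp10 (ENSMUSG00000054588, mm9 chr5:105643926-105668552) had a lowest, median and highest level of 0.535, 2.34 and 17.3 CPM in WT and of 0.474, 5.49 and 19.9 CPM in KO. At 4 h it was at 1.30, 0.535, 4.19 and 3.87 CPM in WT and at 10.4, 8.93, 19.6 and 17.5 CPM in KO. It rose by 1.16 ± 0.25 (2.23-fold, edgeR adjusted p = 0.0101). Gbp3 (ENSMUSG00000028268, mm9 chr3:142223016-142236173) spanned 2.85 to 32.3 CPM in WT (median 8.99) and 4.58 to 44.2 in KO (median 14.6). Its rise of 0.65 ± 0.18 (1.57-fold) was close to the threshold (edgeR adjusted p = 0.0488) and did not pass in 41 of 57 alternatives. Gbp6 (0.64 ± 0.19, adjusted p = 0.0708), Gbp7 (0.58 ± 0.21, 0.152) and Gbp2 (0.38 ± 0.15, 0.182) did not pass. Gbp6 spanned 2.55 to 26.7 CPM in WT (median 6.14) and 1.26 to 22.7 in KO (median 10.5). Gbp6 and Gbp10 are closely similar copies, as Ifit3 and Oas1a have close copies of their own, and the sources used here do not give the counting rule, so how reads were divided among such copies is uncertain.

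**Figure D2:**
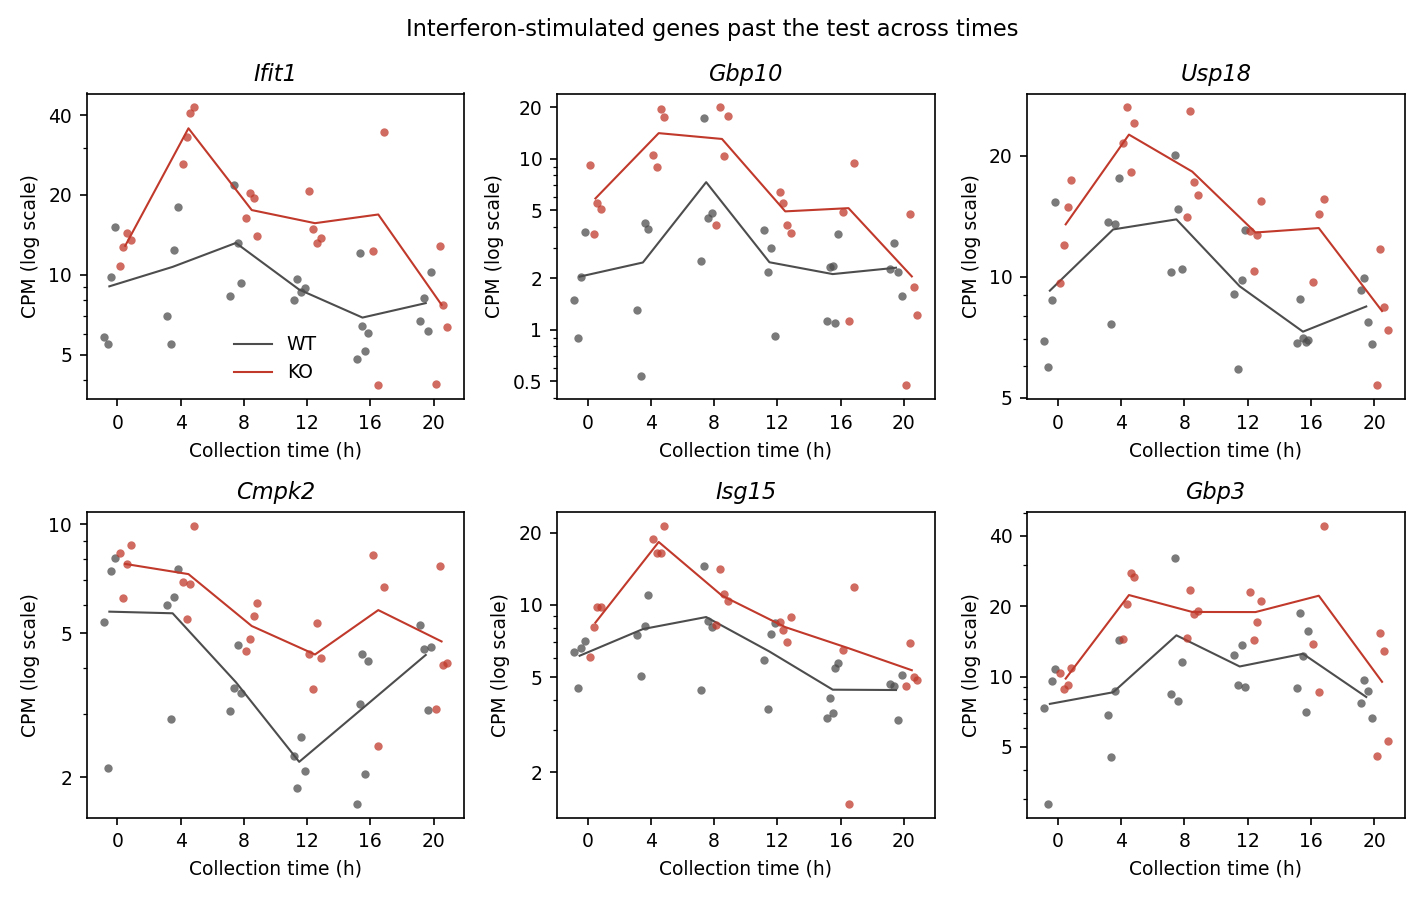
Level in CPM (log axis) against collection time for the 6 genes past the test, each point 1 library and each line a group mean, WT grey and KO red. At 4 h every KO library of Ifit1, Gbp10, Usp18, Isg15 and Gbp3 is above every WT library, while at 20 h the genotypes overlap in all 6 panels.

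The immunity-related GTPases act with the guanylate-binding proteins on vacuoles. None of 5 passed, although 4 had a p below 0.05 before adjustment: Iigp1 (0.48 ± 0.17), Ifi47 (0.46 ± 0.15), Igtp (0.34 ± 0.16) and Irgm1 (0.24 ± 0.09). Irgm2 stood at 0.24 ± 0.12. Ifi47 spanned 5.86 to 43.0 CPM in WT (median 13.9) and 7.22 to 49.2 in KO (median 19.5). It overlaps other annotated genes, so its reads cannot be fully assigned. Among the remaining induced genes, Ifi44 (0.65 ± 0.18) had the lowest adjusted p of any gene that did not pass (0.0564). It ran from 0.489 to 4.10 CPM in WT (median 2.30) and from 0.474 to 7.92 in KO (median 3.67). Rtp4, a chaperone of G protein-coupled receptors, had a change of 0.35 ± 0.12 (adjusted p = 0.112), with 7.64 to 21.1 CPM in WT (median 12.6) and 6.26 to 23.9 in KO (median 15.2). Xaf1, a proapoptotic gene, stood at 0.34 ± 0.13 and Parp14, an ADP-ribosyltransferase gene, at 0.21 ± 0.08, neither past the test.

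In the other families no gene passed. Some members of the 2′-5′-oligoadenylate synthetase (OAS) family make the second messenger that activates RNase L. The 4 genes of the family among the 37 had changes of 0.16 ± 0.19 (Oas2), 0.12 ± 0.17 (Oasl2), 0.08 ± 0.20 (Oas1a) and 0.04 ± 0.22 (Oasl1), each smaller than its SE. Among the transcription factors that carry the signal, Irf9, with a p below 0.05 before adjustment, stood at 0.21 ± 0.07 (adjusted p = 0.128), Irf7 at 0.07 ± 0.13, Irf1 at 0.04 ± 0.08 and Stat2 at −0.02 ± 0.07. The cytosolic RNA sensor gene Ifih1 (MDA5) and its relative Dhx58 (LGP2) both had 0.30, the median of the 37, with SEs of 0.11 and 0.12 and a p below 0.05 before adjustment, while Ddx58 (RIG-I) had −0.02 ± 0.09. The antiviral GTPase genes Mx1 and Mx2 had 0.26 ± 0.20 and 0.06 ± 0.11, and Bst2 (tetherin, which holds budding virus at the cell surface) had 0.05 ± 0.09. For antigen processing, the immunoproteasome subunit gene Psmb8 had 0.05 ± 0.10 and the peptide transporter gene Tap1 0.02 ± 0.14. The lowest edgeR adjusted p in these 5 groups was 0.128, and reads of Oasl1, Irf1, Irf7, Irf9, Dhx58 and Psmb8 may be shared with overlapping annotated genes.

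At single times no gene of the 37 passed in edgeR's quasi-likelihood test. The shares of all genes called were 0.0147% at 0 h, 0.0366% at 4 h, 0.00% at 8 h, 0.00% at 12 h, 0.0220% at 16 h and 0.00% at 20 h. Before adjustment, 1, 18, 0, 4, 11 and 0 of the 37 had a p below 0.05 at these times, where all genes had 5.53%, 23.3%, 1.82%, 4.40%, 6.65% and 1.84%. The median changes were 0.23, 0.56, 0.24, 0.36, 0.41 and 0.01. DESeq2 called 8 of 37 at 4 h, where it called 1.41% of all genes, and 0 at each of the other times. At 4 h same-numbered mice were treated as pairs, and with the replicate number as a block Gbp10 passed there (2.74, edgeR adjusted p = 0.0490). Over all 37 the blocked changes at 4 h had a median of 0.59, with 32 positive, and the next lowest adjusted p was 0.0986. By edgeR 15 genes passed at 4 h without KO 4 h replicate 1, where 24.6% of all genes passed as well, 9 without KO 16 h replicate 3 (2.36% of all genes) and 3 without KO 16 h replicate 2 (0.227%).

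For 22 of 37 genes the largest of the 6 differences was the one at 4 h. The 4 h log2 changes, without the block, were 2.50 ± 0.62 for Gbp10, 1.92 ± 0.52 for Gbp7, 1.73 ± 0.41 for Ifit1, 1.52 ± 0.43 for Iigp1, 1.51 ± 0.36 for Gbp2, 1.42 ± 0.38 for Ifit3 and 1.20 ± 0.33 for Isg15. The lowest edgeR adjusted p among the 37 at 4 h was 0.0875. In 14 of 37 genes every KO library at 4 h lay above every WT library, against 3.81% of all genes. These were Ifit1, Ifit3, Isg15, Usp18, Gbp2, Gbp3, Gbp6, Gbp10, Igtp, Irgm1, Ifi44, Ifi47, Psmb8 and Rtp4. Igtp, for example, was at 59.8, 31.6, 78.7 and 66.2 CPM in WT and at 123, 122, 121 and 127 CPM in KO. At the other times 1 of 37 genes had its KO libraries above all WT libraries at 0 h (Irgm1, 1.88% of all genes), 2 at 8 h (Rsad2 and Parp14, 0.879%), 4 at 12 h (Ifit1, Rsad2, Cmpk2 and Gbp3, 1.35%), 2 at 16 h (Usp18 and Mx2, 0.579%) and 0 at 20 h (0.623%).

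**Figure D3:**
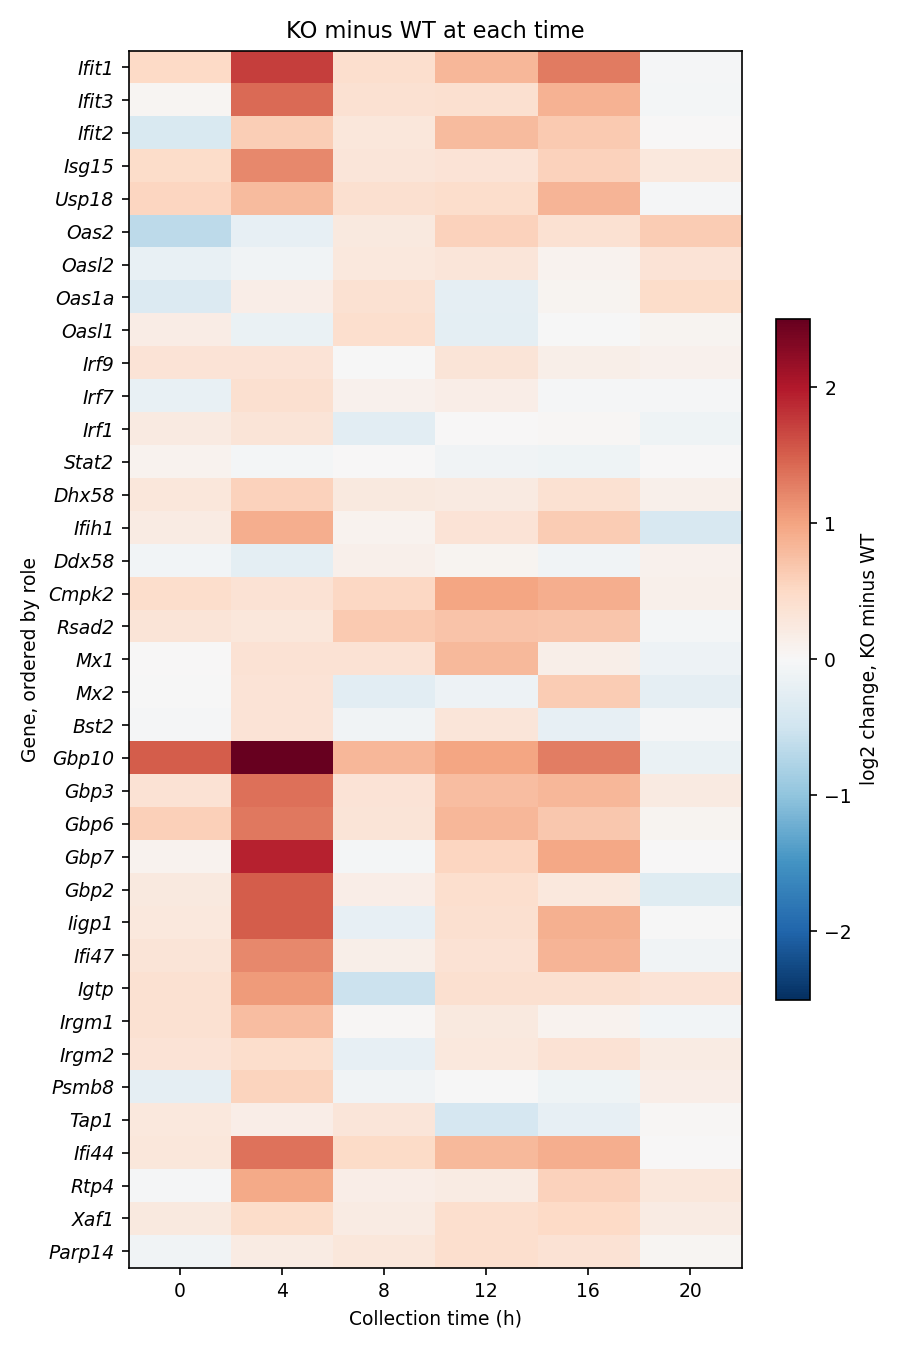
KO minus WT log2 change of each gene (rows, ordered by role) at each collection time (columns), red for higher and blue for lower in KO. The 4 h column holds the deepest red, up to 2.50 for Gbp10, and the 20 h column has a median of 0.01, with values of both signs up to 0.63 for Oas2.

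The mean log2 CPM over the 37 genes, taken in each library, is a description of the list and carries no test. In order of time the WT group means were 3.68 ± 0.50, 3.67 ± 0.50, 3.88 ± 0.33, 3.52 ± 0.12, 3.39 ± 0.24 and 3.43 ± 0.01 (SD, n = 4, with n = 5 at 16 h). The KO group means were 3.93 ± 0.13, 4.41 ± 0.09, 4.12 ± 0.11, 3.90 ± 0.21, 3.73 ± 0.59 and 3.41 ± 0.49 (SD, n = 4, with n = 3 at 16 h). KO was thus higher at 5 times, by 0.75 at 4 h and by 0.24 to 0.38 at the other 4, and differed by −0.02 at 20 h. At 4 h the WT libraries ran from 3.01 to 4.21 and the KO libraries from 4.32 to 4.52. The WT libraries were spread most widely at 0 and 4 h, and the KO libraries at 16 and 20 h. The lowest of all 48 was KO 20 h replicate 1 (2.83), a library high in Saa1. The other libraries named above as high in Saa1, WT 0 h replicate 3 and KO 4 h replicate 2, were at 4.05 and 4.35.

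**Figure D4:**
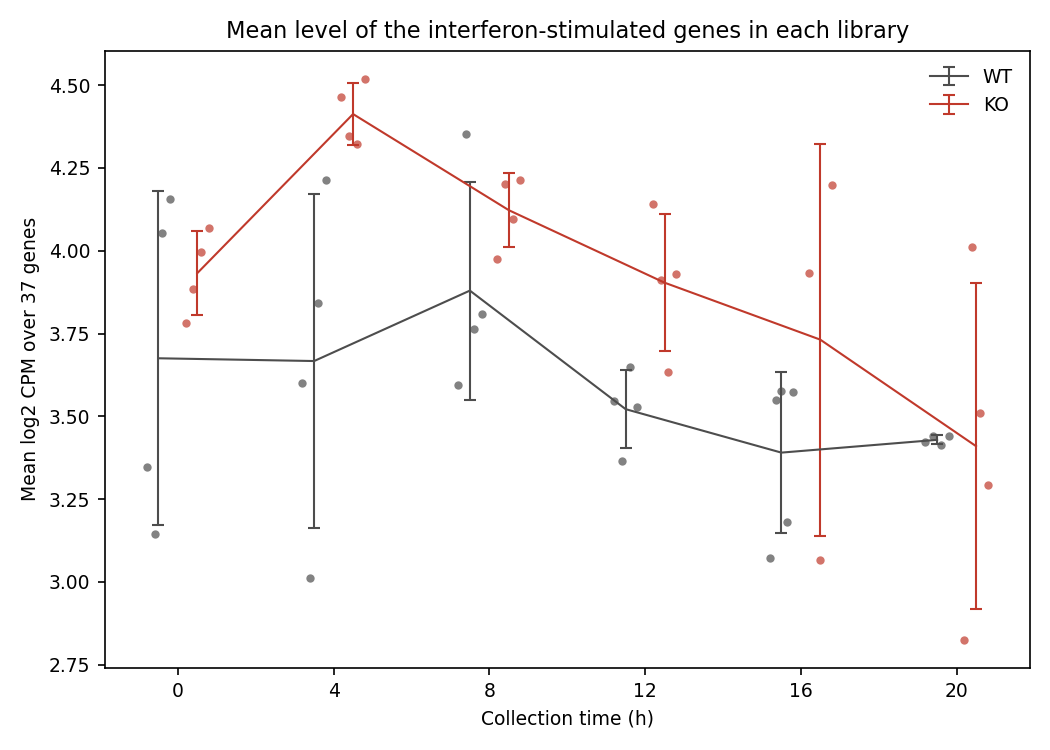
Mean log2 CPM over the 37 genes in each library (points) against collection time, with group means as lines and bars of 1 SD, WT grey and KO red. The 4 KO libraries at 4 h lie between 4.32 and 4.52, above the WT libraries of that time, and the groups overlap at the other 5 times.

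No gene of the 37 passed the genotype by time interaction, so a dependence of the difference on the time was not shown by edgeR (2 had a p below 0.05, 0.00733% of all genes called). DESeq2 called 0 as well, with 5 below 0.05. Levels changed over the 6 times in 7 of 37 genes in WT (8.55% of all genes) and in 12 of 37 in KO (9.73%). Without WT 8 h replicate 2 the WT count was 2 (6.89% of all genes). A 24 h rhythm passed in 12 of 37 genes in WT (16.3% of all genes) and in 21 of 37 in KO (17.0%). Both genotypes had it for 9 genes, which is 75% of the WT calls and 42.9% of the KO calls: Isg15, Usp18, Irf1, Mx1, Mx2, Gbp7, Igtp, Irgm2 and Xaf1. Rsad2, Cmpk2 and Ddx58 passed in WT and not in KO. The test of the rhythm difference itself passed for none (1 with a p below 0.05 by edgeR and 1 by DESeq2, 0.00733% of all genes called), so these lists are not shown to differ.

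The called rhythms had a median amplitude, from mean to peak, of 0.52 log2 units in WT and 0.61 in KO. Their median peak times were 5.66 h and 5.28 h after the first collection. Between 4 and 12 h peaked 8 of the 12 in WT and 17 of the 21 in KO. Cmpk2 and Rsad2 peaked earlier in WT, at 1.13 h and 0.69 h, with amplitudes of 0.59 and 0.53. The KO amplitude was the larger in 29 of 37 genes. It was 1.35 for Gbp10 (0.47 in WT), 1.06 for Gbp7 (0.74), 0.93 for Gbp6 (0.46), 0.85 for Ifit1 (0.36) and 0.85 for Isg15 (0.49). The share of all genes with a larger KO amplitude was not taken, and the rhythm difference passed for none of the 37. Without KO 16 h replicate 2 the KO rhythm was called in 13 genes instead of 21 (14.7% of all genes instead of 17.0%). With the 3 libraries that stood apart left out it was called in 12 (12.9% of all genes).

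**Figure D5:**
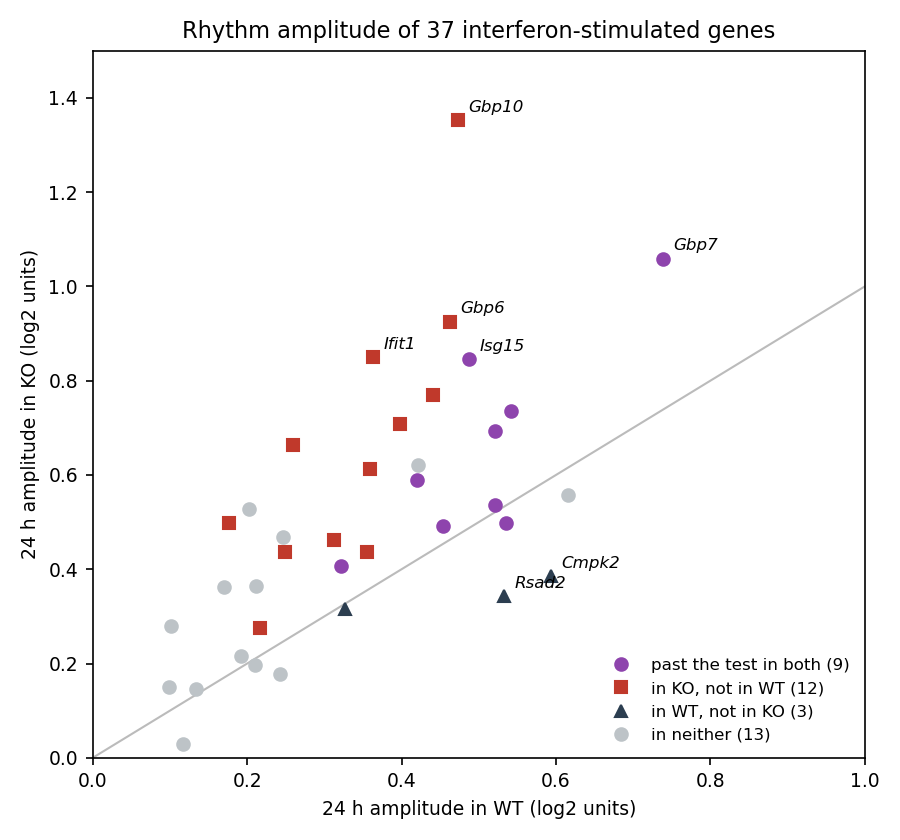
Amplitude of the fitted 24 h rhythm in KO against that in WT, in log2 units, 1 point per gene, with the line of equal amplitudes. Most points (29 of 37) lie above the line, led by Gbp10 at 1.35 in KO, while Cmpk2 and Rsad2 lie below it.

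After subtraction of the group means, most of the genes deviated together from mouse to mouse. The correlation of a gene's deviations with the mean deviation of the other 36, over 48 libraries, had a median of 0.68. It was 0.84 for Ifit1, 0.83 for Rtp4 and 0.82 for Gbp6, and 0.02 for Tap1, 0.09 for Bst2, 0.15 for Stat2 and 0.17 for Oasl1. The libraries share depth and tissue make-up, so this is a description. Outside the list, the genes most like its mean included Cd274 (PD-L1, 0.87), Zbp1 (a nucleic acid sensor, 0.80), Ly6a (0.79), Trim34a (0.77), H2-M3 (0.77), Ddx60 (0.77), Mpeg1 (a macrophage pore-forming protein, 0.77), the class II gene H2-Aa (0.76) and Ly9 (0.75). The median over 10856 candidate genes was −0.01. Of the genes named here, Trim34a was past the genotype test, at 0.40 ± 0.10 (edgeR adjusted p = 0.0324).

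Other genes of the pathway were taken from textbook lists of 114 symbols, of which 90 were tested. Of these, 1 rose, the antiviral zinc finger gene Zc3hav1 (0.30 ± 0.05, edgeR adjusted p = 0.00140), and 0 fell, with 18 at a p below 0.05. These shares of the 90 are near those of all genes (0.623% risen, 17.1% with a p below 0.05). The 4 ligand genes in the table, Ifnb1, Ifng, Ifnk and Ifne, had at most 3 counts in any library and were not tested. None of 5 receptor genes passed (Ifnar1 0.00 ± 0.06, Ifnar2 0.14 ± 0.07, Ifngr1 −0.02 ± 0.07, Ifngr2 0.10 ± 0.09), and none of 5 kinases and signal transducers (Stat3 −0.33 ± 0.16, Jak2 0.08 ± 0.12, Jak1 0.06 ± 0.07, Tyk2 −0.04 ± 0.10), of which 2 had a p below 0.05. None passed among 12 sensors and adaptors (median −0.01), 5 further IRFs (−0.07), 7 feedback inhibitors (−0.04) and 12 antigen presentation genes (−0.04). Of 44 further induced effectors 34 had positive changes, with a median of 0.16. The chemokine genes Cxcl9 (0.59 ± 0.19, adjusted p = 0.105) and Cxcl10 (0.47 ± 0.15, 0.0999) did not pass.

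Markers of cells that respond to or make interferon did not pass, apart from 1. The 12 Kupffer cell and macrophage markers summed to between 179 and 1648 CPM in WT (median 386) and between 169 and 903 in KO (median 494), with 0 of 12 called and 9 positive. At 4 h the sums were 179 to 603 CPM in WT and 320 to 555 in KO. The WT library with the lowest sum, replicate 2, also had the lowest mean of the interferon-stimulated genes at that time (3.01). The WT library with the highest sum, replicate 4 (603), had the highest WT mean of that time (4.21). The KO means of that time lay close together, from 4.32 to 4.52. KO replicate 3 had the highest sum (555) and a mean of 4.32, and KO replicate 2 had the lowest sum (320) and a mean of 4.35. The 9 T and NK cell markers had medians of 5.96 CPM in WT and 5.50 in KO, with 0 of 8 called and 2 positive. Of 6 B and plasma cell markers 2 were positive and Ighm fell (−1.63, edgeR adjusted p = 0.0488), with summed medians of 25.5 CPM in WT and 22.2 in KO. The highest sums were 1386 CPM in WT 16 h replicate 5 and 346 CPM in WT 12 h replicate 3, where the highest KO sum was 50.4. These WT libraries stood far apart in this list. None passed among the endothelial markers (medians 183 and 204 CPM, 3 of 7 positive) and the neutrophil markers (7.27 and 6.95). Of the 6 neutrophil markers tested 0 were positive, with a median log2 change of −1.67. The highest neutrophil sums were 426 CPM in WT (0 h replicate 3) and 522 CPM in KO (20 h replicate 1). Nor did any of the plasmacytoid dendritic cell markers pass (15.6 and 16.6), of which only Tcf4 of the 4 summed was high enough to test. The list also held Bst2 and Irf8, left out of the sum as interferon-induced, and Irf8 stood at −0.31 ± 0.11 (edgeR adjusted p = 0.137). The adrenal markers (2.99 and 2.25 CPM) and the pancreas markers (6.95 and 8.43) were not called either. The 7 hepatocyte markers had summed medians of 41970 CPM in WT and 40633 in KO, with 0 called. Their sums were lowest in KO 16 h replicate 3 (21574) and WT 8 h replicate 2 (24450). Next came KO 4 h replicates 3 (25728) and 4 (27849). In these libraries the interferon-stimulated genes had means of 4.20, 4.35, 4.32 and 4.52, in order. WT 20 h replicate 2 had a sum of 28163 and a mean of 3.44, and KO 4 h replicate 1 had 46484 and 4.46. The part of cell make-up in the changes was not tested.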

How the data were processed

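Liver RNA of 48 mice was sequenced. Libraries were made from poly-A RNA with a TruSeq version 2 kit and sequenced 2 to a lane, each from its own animal, per the labels' protocols. Read counts per gene were deposited by the authors as whole numbers. STAR 2.4.1d, CASAVA and the build mm9 were used, per the submitters' processing notes. The sources used here give neither the counting rule nor the use of strand. Counts without albumin, whose values look scaled, were near equal in total, and the sources do not say how this came about.

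The counts were tested in edgeR 4.0.16 under R 4.3.3 (TMM scaling, minimum count 10 and total 15, 8707 genes removed). A quasi-likelihood model with 12 group means gave the genotype, time and interaction (5 degrees of freedom) tests, and a harmonic model (cosine and sine, period 24 h, separate for WT and KO) the rhythm tests (2 degrees of freedom). Adjustment was by Benjamini-Hochberg over all 13646 genes, threshold 0.05. Standard errors are the log2 change divided by the square root of F. Library values are TMM-scaled CPM, and log2 CPM used a prior count of 2. DESeq2 1.42.0 was an alternative. The statistics were tested on simulated data, and the outcome is not given here. Motifs were searched in RefSeq promoter windows of GRCm38.p6.

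The members, lists and tests were chosen with earlier results of these data known. Every member was named. Library values were given for those past the genotype test and the 6 next by p, the 10 genes most alike were taken at a mean of at least 1 CPM without predicted-gene names, and promoters for genes past the test with a RefSeq entry. The values of 1 gene that this rule takes are not reported here.

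The labels number the replicates without saying what a number marks. Same-numbered WT and KO mice deviated together (correlation over 0.1 across 2000 genes) in 13 of 23 pairs (−0.361 to 0.542), and in all 4 at 4 h (0.231 to 0.460). Same-numbered mice were therefore read as pairs at 4 h only, although the replicate block was run as an alternative across times and at every time. Values without the block are the main ones at all times, and the blocked value is given at 4 h where it changed a call. No 2 libraries of a group were alike within sampling noise (lowest chi-square per degree of freedom 20.7 over 73 pairs). No column of another sample was used.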

Additional observations from a re-analysis of the deposited data

Results flagged for a closer look

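Within groups of at least 4 libraries, 1 library stood far from the others (Dixon's criterion) in 4 of 77 checks of the mean level and of the 6 genes past the test, about the share that chance gives (1 in 20). WT 16 h replicate 2 had 12.1 CPM of Ifit1, where the next highest of its group had 6.40. The same library had 8.79 CPM of Usp18, where the next had 7.05. WT 8 h replicate 2 had 32.3 CPM of Gbp3 and 17.3 CPM of Gbp10, where the next had 11.5 and 4.81. All 4 values were high WT values, and the WT libraries concerned were 2. Without WT 8 h replicate 2, 12 of 37 genes passed across times instead of 6, and without WT 16 h replicate 2, 10 passed. Of all genes, 270 and 381 passed in these settings instead of 191.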

How the results depend on the processing

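The count of genes past the test across times (6 of 37) was 5 with RLE size factors, 4 without the filter on low counts, 5 with albumin kept, 6 in an additive model, 4 with the replicate block and 9 by DESeq2. In these settings the whole table had 172, 122, 171, 181, 127 and 356 calls, in the same order, instead of 191. The count for the 37 was 12 without the 3 libraries that stood apart, 3 without both 16 h groups and 0 without both 4 h groups (303, 173 and 50 of all genes instead of 191). Leaving out 1 library gave 3 (KO 16 h replicate 3 or KO 20 h replicate 2, with 99 and 131 in all) to 12 (WT 8 h replicate 2 or KO 16 h replicate 2, with 270 and 363 in all). At 4 h, where 0 passed, the replicate block gave 1 and DESeq2 8, and leaving out 1 library gave 0 to 15, with 15 without KO 4 h replicate 1, 9 without KO 16 h replicate 3 and 3 without KO 16 h replicate 2, where the whole table had 3354, 322 and 31 calls instead of 5 (192 by DESeq2). Change over times passed in 12 genes in WT and 19 in KO by DESeq2, where the whole table had 1855 and 2288 calls instead of 1167 and 1328. It passed in 2 (without WT 8 h replicate 2, with 940 in all) to 9 in WT and in 8 to 16 in KO when 1 library was left out. Rhythm in WT gave 9 to 17 without 1 library. Rhythm in KO gave 13 (without KO 16 h replicate 2) to 22, or 12 without the 3 libraries. In these last 2 named settings the whole table had 2004 and 1764 rhythm calls in KO instead of 2322. The cause was not tested. Ifit1 and Gbp10 did not pass in 1 of 57 alternatives (without 4 h, edgeR adjusted p = 0.177 for both), Usp18 in 2 (up to 0.132), Cmpk2 in 4 (up to 0.0863), Isg15 in 22 (up to 0.408, and 0.0512 with the replicate block) and Gbp3 in 41 (up to 0.371, and 0.0527 with the block). The median change stayed between 0.23 and 0.41, and 28 of 37 genes were positive in all 57. The replicate block is not supported by the pairing check at times other than 4 h, and at 16 h it left 2 genes with a p below 0.05 instead of 11. The other counts of 0 were 0 in every alternative run. Near-equal totals do not show equal sequencing depth, genes at a few CPM carry more counting error, and p-values concern only these mice.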
